A study of Mus musculus with 10 samples.

Results

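The genes described here encode the enzymes that build cholesterol and fatty acids, together with the SREBP proteins that control them. The set holds 32 genes, 5 regulators, 17 of the sterol branch and 10 of the fatty acid branch. It was taken as a list by name, with earlier results of these data known. A gene was read from probe sets that the array's annotation assigns to it alone, using the one with the highest mean over the 10 arrays, and 31 of the 32 were measured this way among 19938 genes. Acat2, an acetoacetyl-CoA thiolase of the sterol branch, was not analysed here.

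Lkb1 KO embryos carried a floxed Lkb1 gene (Stk11) deleted by a Wnt1-Cre transgene. The driver acts in the neural crest, from which the neurons and glia of DRGs descend, and its activity also reaches parts of the brain and spinal cord. WT embryos were littermate controls as far as the study describes them, and the labels name no strain. Dorsal root ganglions (DRGs) were taken from mouse embryos at E13.5, and each of the 5 Lkb1 KO and 5 WT samples pooled the DRGs of 2 embryos on 1 array. Cells of a ganglion that do not come from the neural crest, such as endothelium and macrophages, keep Lkb1 in this model.

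Cells make sterols and fatty acids from cytosolic acetyl-CoA. Sterol synthesis runs through mevalonate, farnesyl diphosphate, squalene and lanosterol to cholesterol, while fatty acid synthesis runs through malonyl-CoA to palmitate, which is then elongated and desaturated. The SREBP transcription factors, made from Srebf1 and Srebf2, are escorted from the endoplasmic reticulum by SCAP and held back there by INSIG proteins when sterols are plentiful, and their target genes usually move together. LKB1 activates AMPK, and AMPK inhibits acetyl-CoA carboxylase by phosphorylation. The arrays measured mRNA levels only and carried no information on phosphorylation, enzyme activity or lipids.

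SREBP target genes are known for sterol response elements and for nearby CCAAT boxes, which bind NF-Y. RefSeq (GRCm38.p6) gave a promoter window of 300 bases spanning the start for 25 of the 31 measured genes. The windows of 5 genes picked by name are shown. Their CCAAT matches run from the fewest to the most: Elovl6 with 0, Srebf2 with 1, Fasn with 3, Hmgcs1 with 4 and Mvk with 5. Capitals mark CCAAT, which reads ATTGG where it lies on the other strand, and in Hmgcs1 also the sterol response element core TCACNCCAC. Both motifs were searched on both strands, and they do not overlap each other in these windows.
Hmgcs1 (chr13:119690101-119690400, plus strand): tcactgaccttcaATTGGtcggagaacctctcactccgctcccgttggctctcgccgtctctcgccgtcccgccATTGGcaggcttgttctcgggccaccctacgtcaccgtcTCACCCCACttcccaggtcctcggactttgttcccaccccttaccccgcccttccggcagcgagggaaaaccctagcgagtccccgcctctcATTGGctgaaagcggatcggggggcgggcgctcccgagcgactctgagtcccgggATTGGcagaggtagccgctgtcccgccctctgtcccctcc
Mvk (chr5:114444019-114444318, plus strand): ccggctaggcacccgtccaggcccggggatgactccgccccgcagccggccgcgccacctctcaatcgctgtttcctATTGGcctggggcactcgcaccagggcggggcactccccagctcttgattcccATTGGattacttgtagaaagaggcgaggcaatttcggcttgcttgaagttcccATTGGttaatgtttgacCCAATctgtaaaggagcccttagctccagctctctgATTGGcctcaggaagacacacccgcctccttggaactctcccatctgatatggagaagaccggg
Srebf2 (chr15:82147019-82147318, plus strand): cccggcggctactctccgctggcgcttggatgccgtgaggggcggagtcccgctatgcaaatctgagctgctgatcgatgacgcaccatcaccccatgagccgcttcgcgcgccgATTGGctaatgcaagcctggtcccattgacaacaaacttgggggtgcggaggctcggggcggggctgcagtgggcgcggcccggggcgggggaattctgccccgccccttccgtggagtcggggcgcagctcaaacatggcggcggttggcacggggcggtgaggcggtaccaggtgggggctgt
Fasn (chr11:120824498-120824797, minus strand): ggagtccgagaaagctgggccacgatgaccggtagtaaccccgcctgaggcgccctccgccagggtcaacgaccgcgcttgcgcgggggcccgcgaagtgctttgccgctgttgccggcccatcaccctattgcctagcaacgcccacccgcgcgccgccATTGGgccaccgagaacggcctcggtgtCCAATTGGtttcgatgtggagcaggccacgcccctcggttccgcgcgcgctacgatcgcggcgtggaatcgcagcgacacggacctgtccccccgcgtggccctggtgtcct
Elovl6 (chr3:129532136-129532435, plus strand): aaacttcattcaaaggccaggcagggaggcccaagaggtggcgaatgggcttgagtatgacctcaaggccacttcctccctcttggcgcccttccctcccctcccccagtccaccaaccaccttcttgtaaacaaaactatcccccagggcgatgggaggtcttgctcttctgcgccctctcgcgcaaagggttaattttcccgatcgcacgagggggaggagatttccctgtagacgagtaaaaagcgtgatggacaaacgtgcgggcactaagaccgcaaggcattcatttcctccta

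TCACNCCAC was found in 1 of the 25 genes (4%), at bases 114 to 122 of the Hmgcs1 window counted from its 5′ end, against 1.44% of the 27025 genes with a window. CCAAT was found in 21 of the 25 (84%), against 41.1% of all genes, where a gene with several windows counts if any of them matches. Counted by window it was in 22 of 33 (66.7%), against 37.4% of all 32851 windows. By gene it was present in all 13 sterol branch genes with a window, though in Dhcr7 in only 1 of its 3, in 4 of 7 fatty acid branch genes and in 4 of 5 regulators. The Fasn window held matches on both strands that share bases, and the Elovl6 window held neither motif. A match is a string of letters and not a measured binding site. Only exact matches inside these windows were counted, so a gene without a match was not shown to lack the element.

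No gene of the set passed the test between genotypes. At an adjusted p under 0.05 in limma (Benjamini-Hochberg over all 19938 genes, n = 5 against 5), 0 of the 31 were higher and 0 lower in Lkb1 KO, where 3.87% of all genes were called, 2.49% higher and 1.38% lower. The smallest adjusted p in limma was 0.253, for Fads2. Analysis of variance on each gene, with no shared spread, also called 0 of the 31 (1.94% of all genes), with a smallest adjusted p of 0.170, for Acly. Before adjustment, limma gave 4 genes a p under 0.05, all of them higher in Lkb1 KO (Dhcr7, Fads2, Elovl6 and Scd1), and 0 lower; 7.51% of all genes were higher and 7.77% lower at that mark. The analysis of variance gave 2 higher and 1 lower at the same mark. In none of the 31 genes did the WT and Lkb1 KO values separate without overlap, while 5.34% of all genes did so, 3.09% with Lkb1 KO higher and 2.24% with Lkb1 KO lower.

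The data also set a limit on how large a change in array signal could be. How that signal scales with the amount of mRNA was not determined here. Each gene had a 95% interval of its fold change, from limma for that gene singly. All 31 lay within 0.32 of 0 on the log2 scale (a ratio of 5 to 4 in either direction), and so inside 1.5-fold. Acacb counts among them, but its signal was low and was not shown to stand above background. Its interval therefore sets no firm limit on its mRNA. Of all genes tested, 91% had an interval within 0.32 and 98.6% inside 1.5-fold, and of the 7573 genes with a mean signal no lower than that of any member other than Acacb, 89.3% were within 0.32. The largest increase that any interval allowed was 1.21-fold, for Scd1 (upper bound 0.28 on the log2 scale). In the other direction the bound farthest from 0 was that of Mvd, -0.23 on the log2 scale, a level 1.17-fold lower. The median SE over the 31 log2 fold changes was 0.046. The observed change needed for a call had a median of 0.18 on the log2 scale, or 1.13-fold. A true change of that size could still go uncalled. Each interval covers its own gene at 95%, not all 31 jointly, and the number of arrays limits its width. A change confined to a minor cell type would be diluted in these whole-ganglion samples, where fewer cells of a type and less RNA per cell cannot be told apart.

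**Figure D1:**
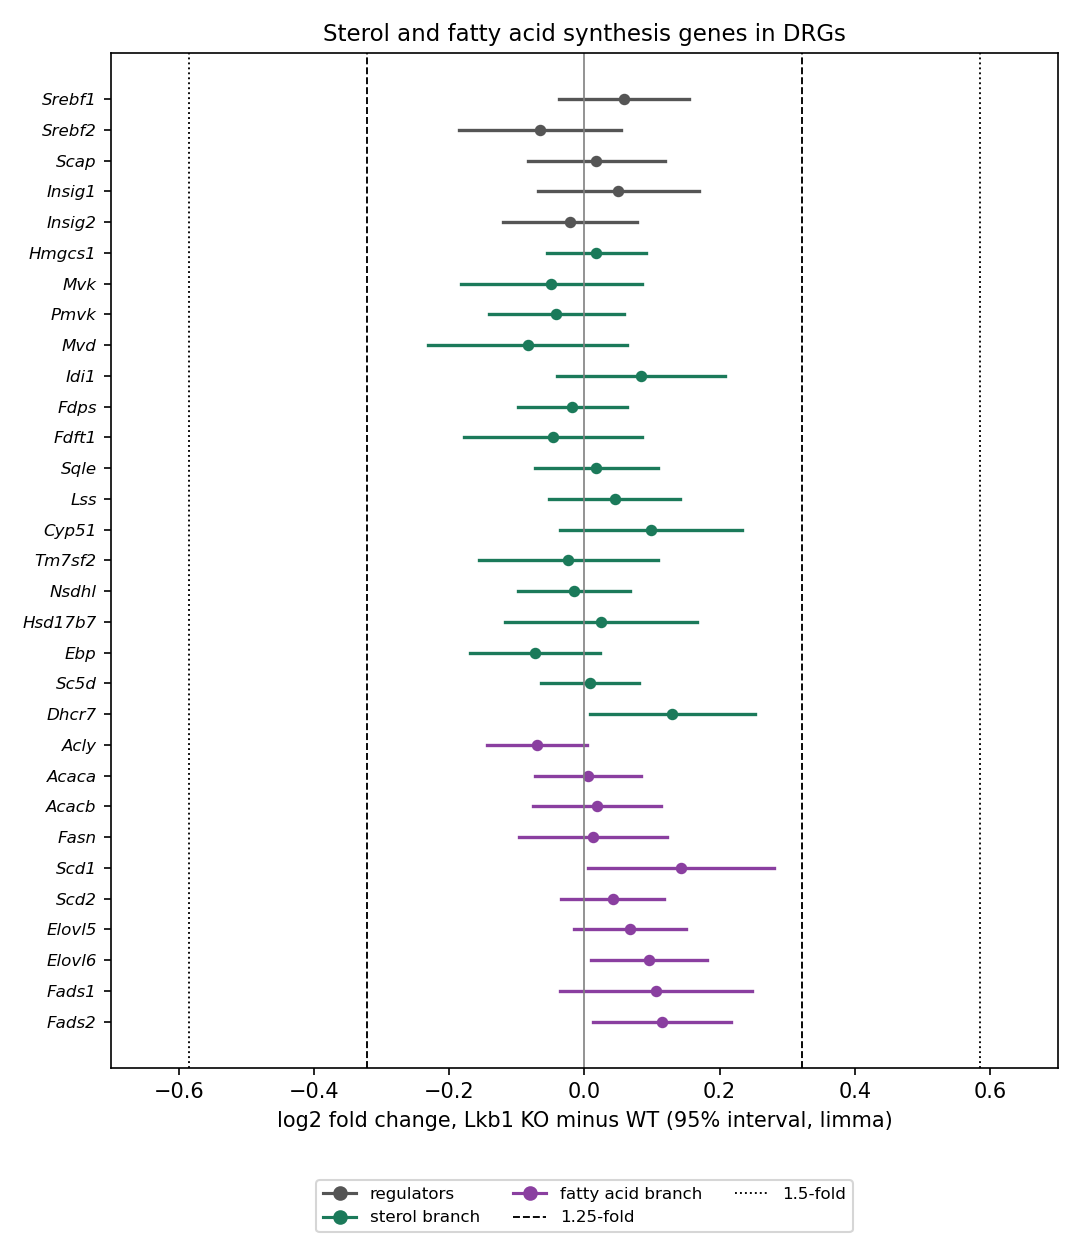
Log2 fold change of each measured gene, Lkb1 KO minus WT, with its 95% interval from limma (5 pools against 5), coloured by regulators, sterol branch and fatty acid branch. Dashed lines stand at 0.32 on the log2 scale and dotted lines at 1.5-fold; every interval lies inside the dashed lines, and 4 lie wholly above 0.

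The regulators gave little difference between the genotypes, 3 of 5 lying above 0 and 2 below, with a median log2 fold change of 0.018. Srebf1, the regulator best known for fatty acid genes, was at 7.76, 7.76, 7.85, 7.78 and 7.69 in WT pools 1 to 5 and at 7.77, 7.80, 7.86, 7.77 and 7.94 in Lkb1 KO pools 1 to 5 on the log2 scale. Lkb1 KO pools 3 and 5 lay above every WT pool and the rest within the WT range. Its log2 fold change was 0.058 ± 0.044 (SE), with a 95% interval of -0.038 to 0.15 (exact permutation p = 0.175, adjusted p in limma = 0.623), and 0.030 without Lkb1 KO pool 5. Srebf2, whose product acts mainly on sterol genes, was at 10.03, 10.11, 10.22, 10.08 and 9.9995 in WT and at 9.96, 10.04, 10.09, 9.88 and 10.13 in Lkb1 KO. Lkb1 KO pools 1 and 4 were below all WT pools, and the highest value of all was WT pool 3. Srebf2 had a log2 fold change of -0.066 ± 0.055 (SE) with an interval of -0.19 to 0.054 (exact permutation p = 0.302, adjusted p in limma = 0.662), and -0.031 without Lkb1 KO pool 4 or -0.034 without WT pool 3.

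Scap, the escort protein, had levels of 8.94, 8.80, 8.92, 8.83 and 8.75 in WT and 8.83, 8.91, 8.94, 8.78 and 8.88 in Lkb1 KO. All Lkb1 KO values fell within the WT range, and the log2 fold change was 0.018 ± 0.047 (SE), interval -0.084 to 0.12 (exact permutation p = 0.730, adjusted p in limma = 0.913). Insig1, itself an SREBP target and so often read as a gauge of the pathway, had levels of 9.72, 9.85, 9.72, 9.94 and 9.80 in WT and 9.92, 9.91, 9.75, 9.76 and 9.93 in Lkb1 KO. Here 3 Lkb1 KO pools stood close to the highest WT pool and 2 close to the lower ones. Its log2 fold change was 0.050 ± 0.055 (SE), interval -0.069 to 0.17 (exact permutation p = 0.373, adjusted p in limma = 0.756). Insig2, the second retention protein, was at 8.56, 8.56, 8.59, 8.39 and 8.55 in WT and at 8.60, 8.49, 8.52, 8.49 and 8.45 in Lkb1 KO. WT pool 4 stood below the other 9 pools, and only Lkb1 KO pool 1 was above the WT range, barely. The log2 fold change was -0.021 ± 0.046 (SE), interval -0.12 to 0.078 (exact permutation p = 0.635, adjusted p in limma = 0.892).

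The sterol branch was evenly split, with 8 of 16 measured genes above 0 and 8 below and a median log2 fold change of -0.0037, against -0.0017 over all genes tested and 49.1% of all genes above 0. The 6 genes up to farnesyl diphosphate had a median of -0.030 and the 10 from squalene synthase onward a median of 0.013. Hmgcs1, the HMG-CoA synthase at the entry to the mevalonate pathway, had the narrowest interval of the branch. Its levels were 11.58, 11.53, 11.58, 11.60 and 11.59 in WT and 11.63, 11.56, 11.56, 11.63 and 11.58 in Lkb1 KO. The pools of both genotypes ran together, and Lkb1 KO pools 1 and 4 were the highest. Hmgcs1 had a log2 fold change of 0.018 ± 0.033 (SE), interval -0.055 to 0.090 (exact permutation p = 0.373, adjusted p in limma = 0.872), so that an increase beyond 1.06-fold lay outside it. Hmgcs1 is also the gene whose promoter window held the sterol response element core.

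Mvd, the decarboxylase that makes isopentenyl diphosphate, had the widest interval of the branch, with 8.15, 8.45, 8.04, 8.27 and 8.13 in WT and 8.12, 8.14, 8.05, 8.07 and 8.22 in Lkb1 KO. WT pools 2 and 4 stood above all Lkb1 KO pools, while WT pools 1 and 5 lay among them and WT pool 3 just below. The log2 fold change was -0.084 ± 0.068 (SE), interval -0.23 to 0.063 (exact permutation p = 0.325, adjusted p in limma = 0.651), and -0.023 without WT pool 2. Idi1, the isomerase of the next step, was at 10.33, 10.14, 10.24, 10.29 and 10.29 in WT and at 10.51, 10.24, 10.28, 10.41 and 10.26 in Lkb1 KO. Lkb1 KO pools 1 and 4 were above every WT pool and the other 3 were inside the WT range. Its log2 fold change was 0.083 ± 0.057 (SE), interval -0.041 to 0.21 (exact permutation p = 0.238, adjusted p in limma = 0.567), 0.041 without Lkb1 KO pool 1 and 0.054 without WT pool 2, and a second probe set of Idi1 gave 0.085.

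Cyp51, the lanosterol demethylase, had levels of 9.38, 9.61, 9.45, 9.64 and 9.42 in WT and 9.73, 9.57, 9.58, 9.47 and 9.64 in Lkb1 KO. Only Lkb1 KO pool 1 exceeded the highest WT pool, and the log2 fold change was 0.099 ± 0.062 (SE), interval -0.037 to 0.23 (exact permutation p = 0.206, adjusted p in limma = 0.522), and 0.065 without that pool. Dhcr7, the reductase that finishes cholesterol, gave the largest difference of the branch, with 9.26, 9.32, 9.28, 9.38 and 9.07 in WT and 9.40, 9.35, 9.50, 9.35 and 9.36 in Lkb1 KO. WT pool 5 stood well below the rest, Lkb1 KO pool 3 was the highest, pool 1 was barely above the WT range, and the other 3 Lkb1 KO pools were inside it. Dhcr7 gave a log2 fold change of 0.13 ± 0.056 (SE), interval 0.0087 to 0.25 (exact permutation p = 0.0397, adjusted p in limma = 0.282); without WT pool 5 it was 0.082 and the interval held 0. Ebp, the X-linked sterol isomerase, had 8.20, 8.39, 8.33, 8.35 and 8.36 in WT and 8.32, 8.28, 8.18, 8.21 and 8.28 in Lkb1 KO. All but 1 Lkb1 KO value lay inside the WT range, and the log2 fold change was -0.073 ± 0.044 (SE), interval -0.17 to 0.023 (exact permutation p = 0.127, adjusted p in limma = 0.497).

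The other 10 sterol genes had log2 fold changes between -0.049 and 0.045. The 2 mevalonate kinases were both a little below 0, Mvk at -0.049 and Pmvk at -0.041, and the farnesyl diphosphate synthase Fdps was at -0.018. Of the squalene and lanosterol enzymes, the squalene synthase Fdft1 was at -0.047, the squalene epoxidase Sqle at 0.018 and the lanosterol synthase Lss at 0.045. The later sterol enzymes gave -0.024 for the reductase Tm7sf2, -0.016 for the X-linked dehydrogenase Nsdhl, 0.025 for the ketoreductase Hsd17b7 and 0.0085 for the desaturase Sc5d. None of these 10 had a p under 0.05 in limma before adjustment. Fdft1 stood out in WT pool 5, at 11.98 against 11.66 to 11.68 in the other 4 WT pools, and its second probe set showed the same, 11.88 against 11.54 to 11.59. Without that pool the log2 fold change of Fdft1 was 0.014.

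**Figure D2:**
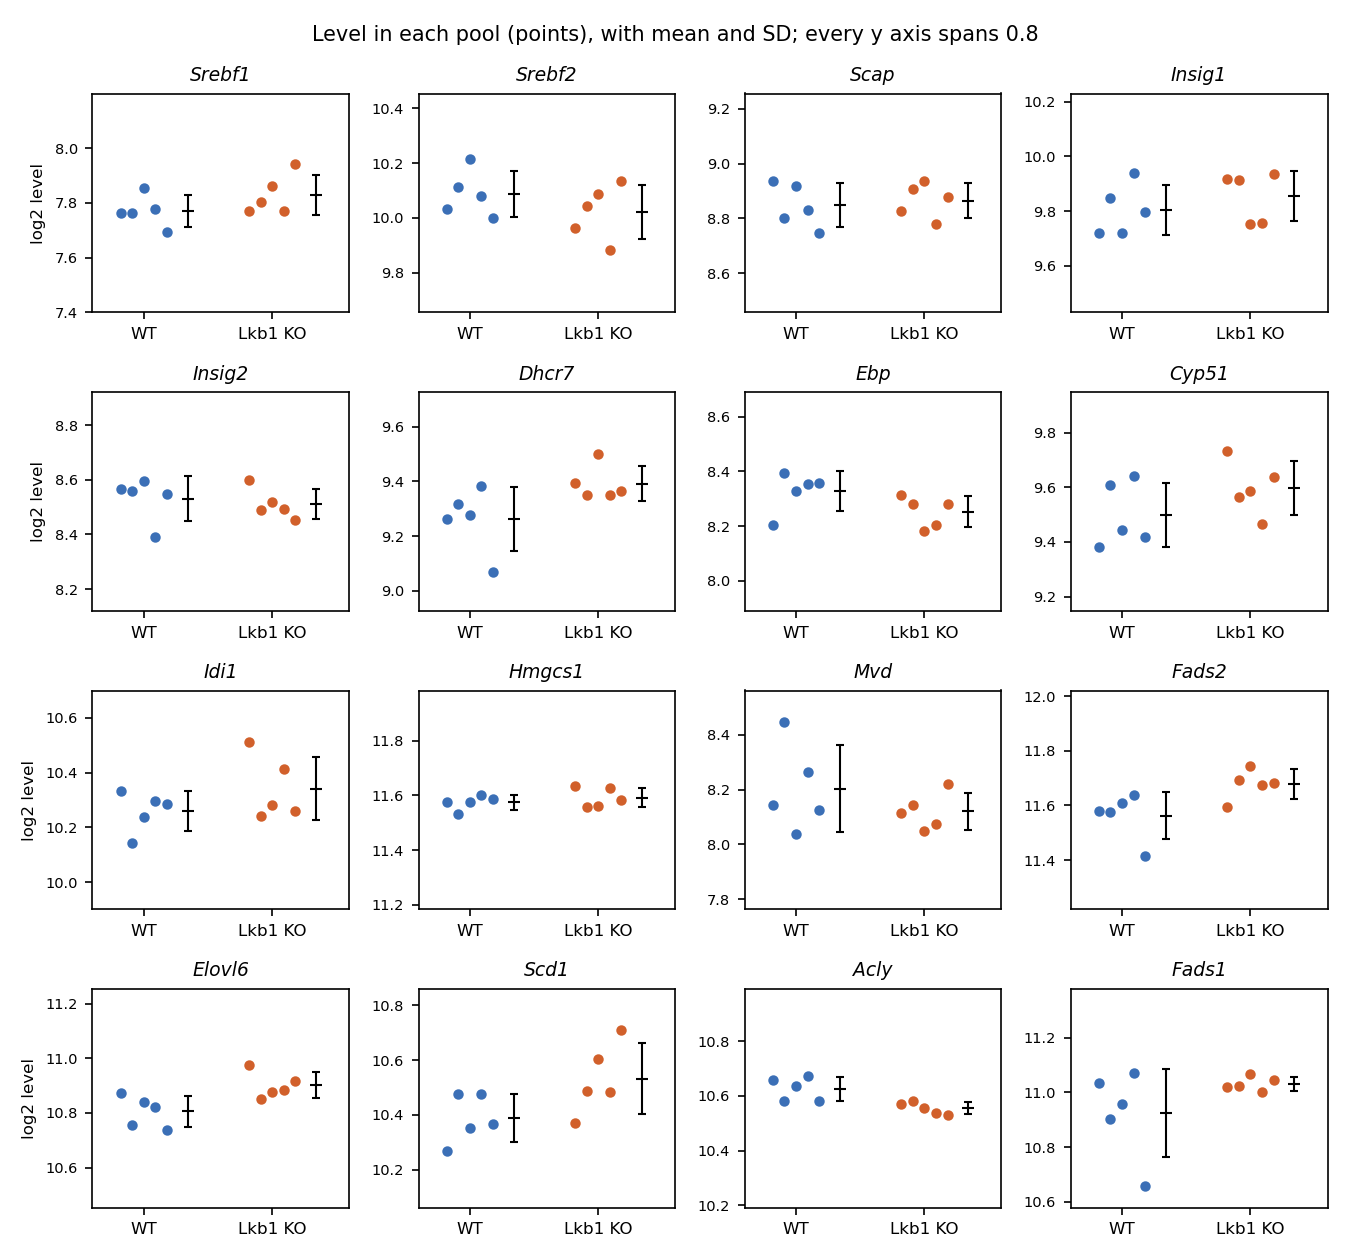
Log2 level of 16 genes in each pool (points, WT replicates 1 to 5 at left and Lkb1 KO replicates 1 to 5 at right of each panel) with the mean and SD of the group. Every vertical axis spans 0.8, and in each panel the points of WT and Lkb1 KO overlap.

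The fatty acid genes of the set lay mostly above 0, by small amounts that did not pass the test. Of the 10 genes 9 were above 0, against 49.1% of all genes, with a median log2 fold change of 0.054. Acly was the exception, and 3 of the 10 had a p under 0.05 in limma before adjustment. The lean was not shared by 27 other measured genes of fatty acid and glycerolipid metabolism. Of those, 14 lay above 0 and 13 below, with a median of 0.0029. Fads2 catalyses the first desaturation step on the way to long polyunsaturated fatty acids. It had the smallest p of the set in limma, though not by the exact permutation test or analysis of variance. Its levels were 11.58, 11.58, 11.61, 11.64 and 11.41 in WT and 11.59, 11.69, 11.75, 11.68 and 11.68 in Lkb1 KO. Of the Lkb1 KO pools 4 lay above every WT pool, Lkb1 KO pool 1 fell inside the WT range, and WT pool 5 was lowest by a wide margin. The log2 fold change of Fads2 was 0.11 ± 0.047 (SE), interval 0.013 to 0.22 (exact permutation p = 0.0238, adjusted p in limma = 0.253). Fads1, the desaturase that acts later in the same series, had 11.03, 10.90, 10.96, 11.07 and 10.66 in WT and 11.02, 11.02, 11.07, 11.0002 and 11.05 in Lkb1 KO. WT pool 5 was again far below the rest, and the Lkb1 KO pools, which lay close together, were all inside the WT range. Fads1 had a log2 fold change of 0.11 ± 0.066 (SE), interval -0.036 to 0.25, the widest of the branch (exact permutation p = 0.167, adjusted p in limma = 0.510), and 0.040 without WT pool 5.

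Elovl6, which elongates palmitate, had levels of 10.87, 10.76, 10.84, 10.82 and 10.74 in WT and 10.97, 10.85, 10.88, 10.89 and 10.92 in Lkb1 KO. Lkb1 KO pool 2 was inside the WT range and the other 4 above it, although by little over WT pool 1. Its log2 fold change was 0.095 ± 0.040 (SE), interval 0.0094 to 0.18 (exact permutation p = 0.0159, adjusted p in limma = 0.264). Scd1, which makes monounsaturated fatty acids, gave the largest difference of the whole set, with 10.27, 10.48, 10.35, 10.48 and 10.37 in WT and 10.37, 10.49, 10.60, 10.48 and 10.71 in Lkb1 KO. Lkb1 KO pools 3 and 5 were clearly above the WT values, pools 2 and 4 only just, and pool 1 was at the level of WT pool 5. Scd1 had a log2 fold change of 0.14 ± 0.064 (SE), interval 0.0050 to 0.28 (exact permutation p = 0.0397, adjusted p in limma = 0.302). Acly, the citrate lyase that supplies acetyl-CoA to both branches, was the member below 0, with 10.66, 10.58, 10.63, 10.67 and 10.58 in WT and 10.57, 10.58, 10.55, 10.54 and 10.53 in Lkb1 KO. Here 4 Lkb1 KO pools lay below every WT pool and Lkb1 KO pool 2 level with the 2 lowest, but the distances were short. Its log2 fold change was -0.071 ± 0.034 (SE), interval -0.14 to 0.0034, the narrowest of the branch (exact permutation p = 0.0159, adjusted p in limma = 0.359).

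The enzymes of the core of fatty acid synthesis hardly differed. Fasn, the fatty acid synthase, was 10.98 ± 0.10 in WT and 10.99 ± 0.051 in Lkb1 KO (mean ± SD, n = 5 each), a log2 fold change of 0.012 with an interval of -0.097 to 0.12. Acaca, the acetyl-CoA carboxylase that AMPK phosphorylates and that makes malonyl-CoA for synthesis, was 10.26 ± 0.034 in WT and 10.26 ± 0.048 in Lkb1 KO (mean ± SD, n = 5 each), a log2 fold change of 0.0050 with an interval of -0.073 to 0.083, and its second probe set gave 0.058. Acacb, the form at the mitochondrial surface, gave low signal, between 4.95 and 5.14 in WT, and a log2 fold change of 0.019. Whether that signal stood above background was not determined here. The other 2 genes, the desaturase Scd2, a main form in the developing mouse nervous system, and the elongase Elovl5, were at 0.042 and 0.067, with adjusted p in limma of 0.666 and 0.464.

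The branches were set against each other pool by pool, as the mean deviation of a branch's genes from each gene's mean over the 10 arrays. The sterol branch mean was -0.0023 ± 0.043 in WT and 0.0023 ± 0.025 in Lkb1 KO (mean ± SD, n = 5 each), a difference of 0.0047. For the fatty acid branch it was -0.027 ± 0.052 in WT and 0.027 ± 0.026 in Lkb1 KO, a difference of 0.053 against a pooled SD of 0.041. In pools 1 to 5, the fatty acid mean was -0.0031, -0.030, -0.022, 0.032 and -0.11 in WT and 0.0014, 0.016, 0.062, 0.0089 and 0.045 in Lkb1 KO. WT pool 5 was the lowest and WT pool 4 lay within the Lkb1 KO range, so the genotypes overlapped. The sterol mean minus the fatty acid mean was -0.028, 0.069, -0.0098, 0.019 and 0.072 in WT pools 1 to 5 and 0.036, -0.016, -0.075, -0.036 and -0.031 in Lkb1 KO pools 1 to 5. Lkb1 KO minus WT, this contrast of the branches was -0.049, about the size of its pooled SD of 0.043, and the pools overlapped. It is given with no p, since the genes were chosen as a list with results of these data already known.

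The differences of the branches were sensitive to single pools. WT pool 5 was the lowest WT pool for 8 of the 10 fatty acid genes and the highest for 0, while WT pool 4 was the highest for 5. Without WT pool 5, 7 of 10 fatty acid genes lay above 0, the median was 0.038, the contrast of the branches was -0.037, and 0 of the 31 genes were higher at an unadjusted p under 0.05 in limma in place of 4. Without Lkb1 KO pool 3 likewise 7 of 10 lay above 0, with a median of 0.045 and a contrast of -0.036, and without WT pool 2 the contrast was -0.038. The count at an unadjusted p was 1 without Lkb1 KO pool 3, 2 without WT pool 1 or 3 or Lkb1 KO pool 1 or 5, and 3 or 4 without any of the others, and 1 gene was lower at that mark without WT pool 1, 2 or 5. With any 1 of the 10 pools left out, limma called 0 of the 31. The medians ran from -0.0065 to 0.0072 in the sterol branch, from 0.038 to 0.064 in the fatty acid branch and from -0.0073 to 0.039 among the regulators. The widest interval then reached 1.21- to 1.24-fold.

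**Figure D3:**
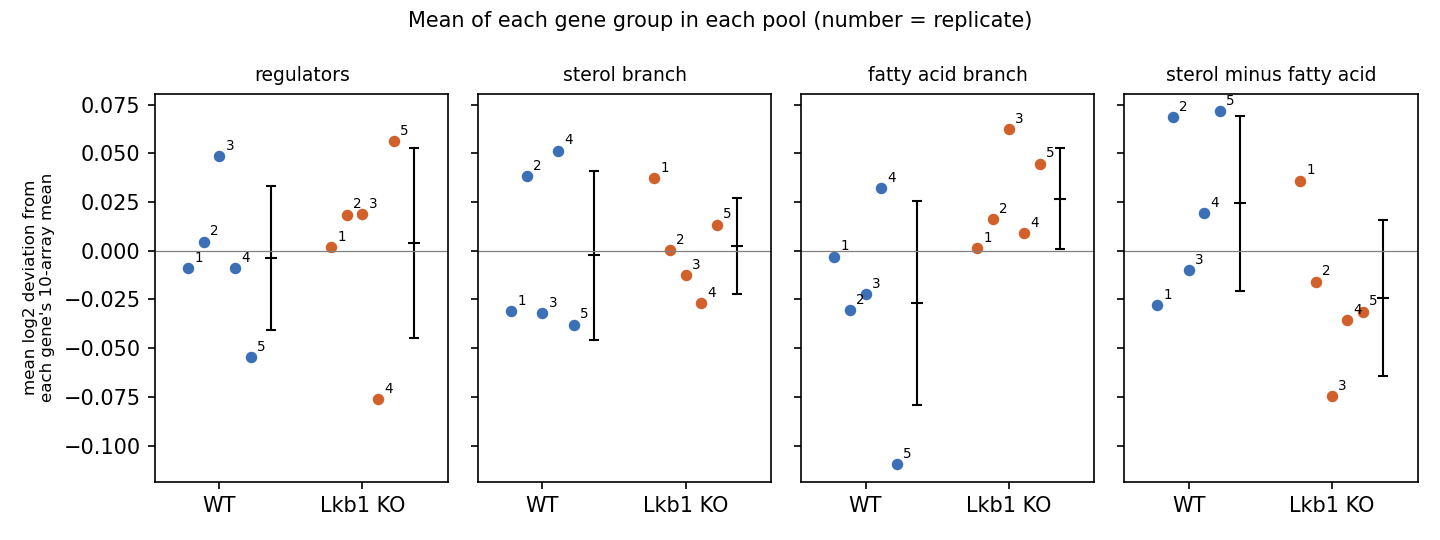
Mean log2 deviation of the regulators, the sterol branch and the fatty acid branch in each pool, and sterol minus fatty acid, with the group mean and SD (points are pools, numbered by replicate). WT pool 5 is the lowest point of the fatty acid panel, at -0.11, and the genotypes overlap in all panels.

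Members of a group also varied together to some degree among pools of the same genotype. After removing the group means, the mean pairwise correlation over the 10 arrays was 0.30 within the fatty acid branch, 0.14 within the sterol branch, 0.13 within the regulators, 0.10 between the branches and 0.0032 over all genes tested. All these values come from the same 10 arrays, normalised together, and are a description with no test. WT pool 5 was the lowest WT pool for 8 of the 10 fatty acid genes, and the correlation over the 10 arrays was not computed without it. The value over all genes includes dim genes, and none was computed for genes as bright as the members. In WT alone the fatty acid value was 0.41, the sterol value 0.16 and the regulator value 0.084, and in Lkb1 KO alone they were 0.15, 0.083 and 0.17. Fads1, Fasn and Fads2 followed the rest of their branch most closely, with correlations of 0.95, 0.85 and 0.84, while Scd1 (0.11) and Acacb (-0.13) did not follow it. The lowest value of Fads1, Fasn and Fads2 was in each case that of WT pool 5. In the sterol branch Cyp51 was closest to the others (0.92), followed by Pmvk (0.67) and Sc5d (0.66). Not tied to the rest were Hmgcs1 (-0.023), Idi1 (-0.046), Tm7sf2 (0.0022), Hsd17b7 (0.017) and Nsdhl (0.059), and Fdft1 ran against them (-0.28). Srebf2 tracked the other regulators at 0.85, and both Insig genes ran slightly against them, at -0.23 each.

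**Figure D4:**
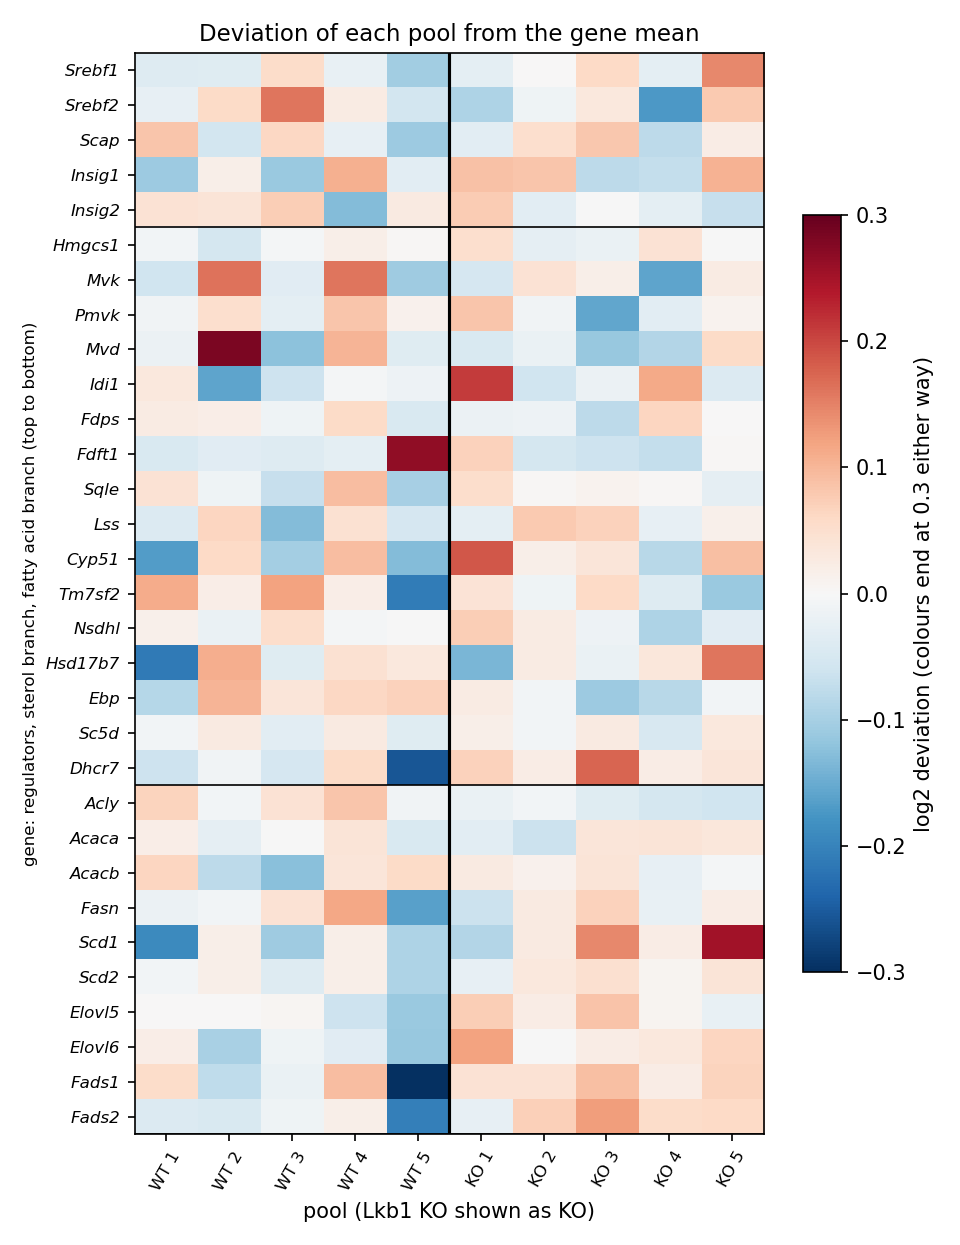
Deviation of each pool from the gene's mean over the 10 arrays, on the log2 scale, for the 31 genes (from top to bottom regulators, sterol branch and fatty acid branch) in 5 WT and 5 Lkb1 KO pools. The column of WT pool 5 is blue through most of the fatty acid branch, and no block of genes separates the genotypes.

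The wider pathway was read from 61 other genes of sterol and lipid metabolism, of which 51 were measured and the rest were not analysed here. In limma, 0 of the 51 passed an adjusted p of 0.05, where 3.87% of all genes did. At an unadjusted p under 0.05 in limma, 3 were higher and 7 lower, against 7.51% and 7.77% of all genes. The median log2 fold change of the 51 was -0.0081, and 47 had intervals within 0.32 of 0, against 91% of all genes. The named genes that follow were chosen after their values were seen. Lpin1, a phosphatidate phosphatase of glycerolipid synthesis, came closest to a call, at 7.02 to 7.29 in WT and 6.82 to 7.10 in Lkb1 KO, a log2 fold change of -0.22 ± 0.061 (SE; adjusted p in limma = 0.0637). Me1, the malic enzyme that supplies NADPH, was at 9.18 to 9.50 in WT and 9.35 to 9.72 in Lkb1 KO, a log2 fold change of 0.25 ± 0.079 (SE; adjusted p in limma = 0.126). With the replicate number as a block, limma called both, Lpin1 at an adjusted p of 0.0126 and Me1 at 0.0102, and also Elovl7, an elongase, at 0.0202 (log2 fold change -0.19), while 6.42% of all genes were then called and still 0 of the 31. The Elovl7 value moved with single pools and with the covariates, to -0.077 without WT pool 1, -0.29 without Lkb1 KO pool 1, 0.096 with the fibroblast level and 0.67 with the proliferation level in the fit. Nr1h3, the oxysterol receptor LXR alpha that activates Srebf1, was the only one of the 51 with no overlap, against 5.34% of all genes. Nr1h3 was at 4.68 to 4.85 in WT and 4.86 to 5.06 in Lkb1 KO, a low signal. Its log2 fold change was 0.12 ± 0.049 (SE; adjusted p in limma = 0.269; exact permutation p = 0.00794, the smallest that 5 against 5 can give).

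Stk11, the deleted gene, was 8.70 ± 0.22 in WT and 7.78 ± 0.11 in Lkb1 KO (mean ± SD, n = 5 each), a log2 fold change of -0.92 with no overlap (adjusted p in limma = 0.000115). The array's probes for it were not placed relative to the floxed exons. The labels call the samples sensory neurons, but markers of glia, fibroblasts and endothelium were measured in all pools beside those of neurons, and several lists shifted between the genotypes: 8 of 12 fibroblast and mesenchyme markers were called higher in Lkb1 KO, with a mean level of 8.25 to 8.36 in WT and 8.50 to 8.57 in Lkb1 KO. Of 11 proliferation markers 8 were called higher (8.73 to 8.94 in WT, 9.08 to 9.31 in Lkb1 KO), and of 15 sensory neuron markers 3 were called lower (10.54 to 10.67 in WT, 10.38 to 10.49 in Lkb1 KO). All 15 neuron markers lay below 0, and 11 were lower at an unadjusted p under 0.05 in limma, against 7.77% of all genes. Over all genes 2.49% were called higher and 1.38% lower. Schwann and satellite glia markers were mixed, 1 higher and 2 lower of 10 (9.50 to 9.55 in WT, 9.53 to 9.66 in Lkb1 KO), 1 of 8 endothelial markers was higher, and 0 of 8 pericyte, 0 of 8 macrophage and 0 of 6 erythroid markers were called in limma, with 2, 0 and 0 at an unadjusted p under 0.05. The mean of 3 Y-linked genes was 5.02 and 5.21 in Lkb1 KO pools 2 and 5 and 8.80 to 9.81 in the other pools. X-linked Xist, a marker of female cells, was low in WT pools 1, 3 and 5 and Lkb1 KO pool 3, at 4.48 to 5.46. In the remaining pools Xist was at 11.70 to 12.37. Embryo sex was thus not balanced between the genotypes, and leaving out Lkb1 KO pools 2 and 5 did not balance it. Without both pools 0 of the 31 genes were called and the widest interval reached 1.24-fold. Ebp and Nsdhl are X-linked, and no fit took Xist or the sensory neuron level as a covariate.

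**Figure D5:**
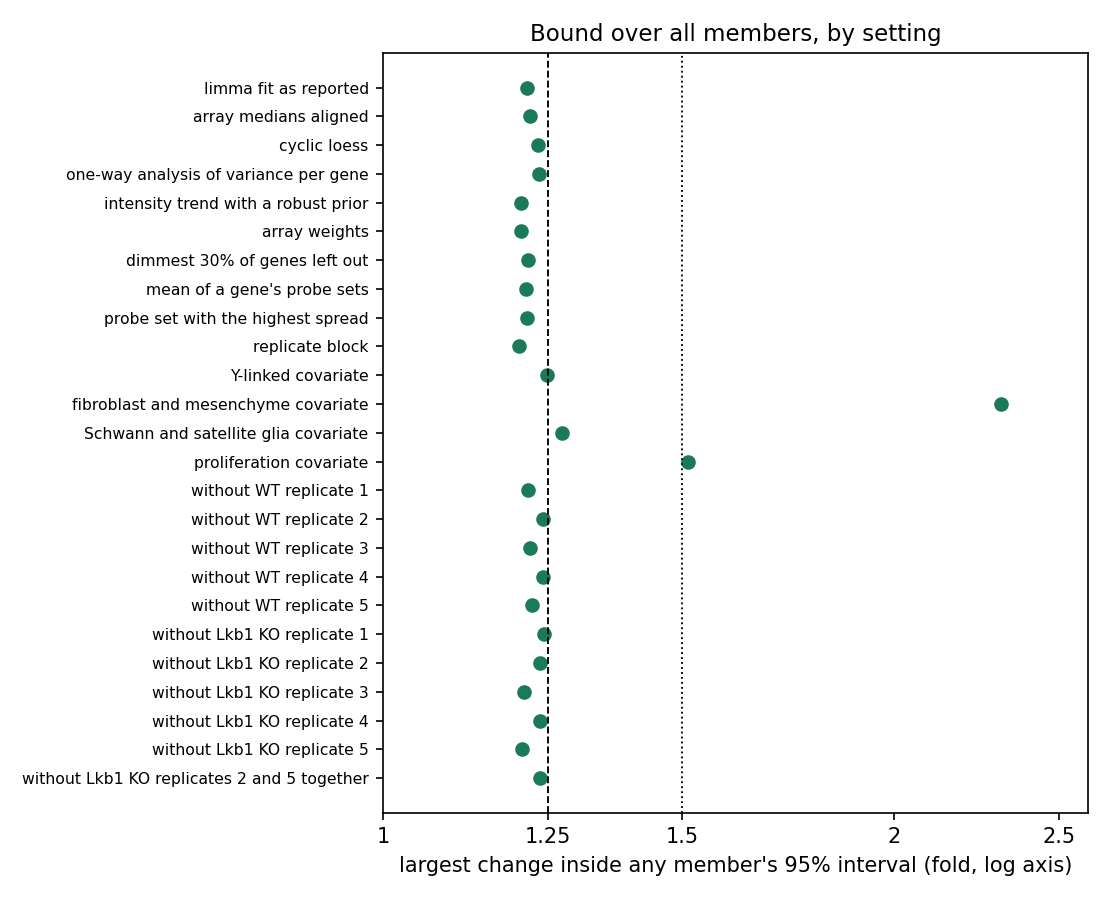
Largest fold change, in either direction, inside the 95% interval of any of the genes, on a log axis, for the limma fit as reported and for each alternative setting. The bound stays at or below the dashed line (0.32 on the log2 scale) except with the glia (1.27-fold), proliferation (1.51-fold) or fibroblast (2.31-fold) marker level as a covariate.

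The bound on the size of change depended on whether these marker levels were taken into the fit. The mean fibroblast and mesenchyme level correlated at 0.970 with genotype over the 10 pools and the proliferation level at 0.903. With the fibroblast level as a covariate the largest change allowed for any gene was 2.31-fold, 10 of the 31 genes had intervals inside 1.5-fold and 0 within 0.32 on the log2 scale. With the proliferation level it was 1.51-fold, with 13 within 0.32 and 30 inside 1.5-fold. The fit with the fibroblast level called 0 of all 19938 genes in limma, so that its count of 0 among the 31 says nothing about them; 6 were higher and 1 lower at an unadjusted p under 0.05. With the proliferation level limma called 136 of all genes higher and 116 lower and 0 of the 31, of which 3 were higher and 1 lower at an unadjusted p under 0.05. The limit of 0.32 therefore applies to the level in whole DRGs, and genotype and these marker levels cannot be told apart here.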

How the data were processed

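Total RNA (250 ng) of E13.5 DRGs from 5 Lkb1 KO and 5 WT samples, each pooling 2 embryos, was biotin-labelled, and every sample had its own one-colour array. The table the authors deposited holds log2 values of 35556 probe sets. RMA and Partek 6.6 appear in the submitters' processing notes, and MATLAB with a false discovery rate of 0.01 in the methods. RMA brings the arrays to a common distribution, so a change shared by most genes would not be seen; array medians here differed by at most 0.069. Scanner files were not used here, and no detection call was made, so dim signals have no floor. Arrays carry no read depth, and their number limits the precision.

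The platform annotation named 1 gene for 21789 probe sets and several for 1621, and 12146 were unnamed here. For 999 genes with several probe sets the one with the highest mean was used. Genotypes were compared by limma's moderated test (limma 3.58.1, R 4.3.3, two-sided), p-values were adjusted by Benjamini-Hochberg over all 19938 genes, and 0.05 was the threshold. The fit was tested on simulated data. Single genes also had a two-sided exact permutation test over all assignments of 5 samples against 5, whose smallest p is 0.00794. Members, lists and tests were chosen with earlier results of these data known. Genes described in full were the regulators, the 4 of each branch with the smallest unadjusted p, and those with the narrowest and widest interval in each branch. Python 3.11.15 with pandas 2.3.3 did the rest.

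Both genotypes carry replicate numbers 1 to 5. Once group means were removed, a WT and a Lkb1 KO sample of the same number correlated across genes at 0.21 to 0.48, and those of different number at -0.48 to 0.31, so that every same-numbered pair was above 0.1 and the numbers may pair the samples; the labels leave its meaning unstated. All tests, errors and intervals given are unpaired unless the replicate block is named. Samples are labelled as biological replicates, and no pair of arrays held the same values. Other normalisations tried were alignment of array medians and cyclic loess. Other variance models were analysis of variance on single genes, array weights, and a robust prior with an intensity trend. A gene was also read as the mean of its probe sets or from the most variable one, and the dimmest 30% of genes were dropped. Covariates were the replicate block and the Y-linked, fibroblast, glia or proliferation level, and every sample was omitted once. Leaving out Lkb1 KO replicates 2 and 5 together was added after the data were seen. Promoter windows came from RefSeq (GRCm38.p6). Sqle, Fdps, Scd2, Fdft1, Scd1 and Fads1 had no window in the table used.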

Additional observations from a re-analysis of the deposited data

Results flagged for a closer look

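In groups of 5 samples, 62 groups of members were checked for a sample far from its group, and 3 had a gap to the nearest value larger than Dixon's 95% limit of 0.71 of the range; chance flags about 5% of groups. Insig2 in WT pool 4 was at 8.39, with the nearest WT pool at 8.55 (0.77 of the range). Fdft1 in WT pool 5 was at 11.98, with the nearest WT pool at 11.68 (0.95 of the range). Fads2 in WT pool 5 was at 11.41, with the nearest WT pool at 11.58 (0.72 of the range). Both Fdft1 and Fads2 thus concern WT pool 5, in opposite directions, and the cause was not tested.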

How the results depend on the processing

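Under all 24 alternatives 0 of the 31 genes were called in either direction; the fibroblast covariate called 0 of all 19938 genes, so its count says nothing about the 31. The limits that the text gives hold for whole DRGs: all 31 intervals lay within 0.32 of 0 (log2) in every setting that kept all genes except the glia (30), proliferation (13) and fibroblast (0) covariates, and leaving out the dimmest 30% of genes dropped Acacb and kept the other 30 inside. With 1 sample left out the smallest adjusted p in limma ran from 0.126 to 0.327. With the fibroblast covariate, 10 genes stayed inside 1.5-fold, the regulator median was 0.28, the fatty acid median 0.26 and the sterol minus fatty acid difference -0.27. With the glia covariate the fatty acid median was 0.014, 7 of 10 lay above 0 and the difference was -0.020. Then 0 of the 31 had an unadjusted p under 0.05 in limma, in place of 4. With the proliferation covariate the fatty acid median was 0.070, 8 of 10 lay above 0 and the difference was -0.088. The other pathway genes gave 1 call with array medians aligned and with cyclic loess (Lpin1 in both), 1 with the most variable probe set and with the proliferation covariate (Me1 in both), 3 with the replicate block, 2 with the Y-linked covariate and 2 without Lkb1 KO replicates 2 and 5 (Npc2 and Lpin1 in both), and 0 to 1 with 1 sample left out (Lpin1 without WT replicate 5 or without Lkb1 KO replicate 2). Among the 31 genes and the other pathway genes, the replicate block changed no other call.

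Of the 16 genes described in full, 7 kept their sign throughout; none of the others was called in either direction. Insig2 turned to 0.0013 with cyclic loess, 0.016 with the Y-linked covariate, 0.096 with proliferation and 0.0049 without Lkb1 KO replicates 2 and 5. Insig1 turned to -0.021 (Y-linked), -0.013 (fibroblast) and -0.090 (proliferation). Scap turned to -0.024 (glia), to -0.00052 without Lkb1 KO replicates 2 and 5, and ran from -0.0073 to 0.040 with 1 sample left out. The fibroblast covariate turned Srebf2 to 0.28, Idi1 to -0.13, Hmgcs1 to -0.061 and Acly to 0.077, and the proliferation covariate turned Srebf1 to -0.00028 and Scd1 to -0.096. The cause of these changes was not tested.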
